A study of Rattus norvegicus with 6 samples.

Results

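The genes described here are the interferon response and antigen presentation genes of neonatal rat heart muscle cells, given as a list of 42 gene symbols. They comprise interferon-regulated transcription factors, antiviral effectors, the ISG15 conjugation system, the inducible subunits of the proteasome and the machinery that loads peptides onto major histocompatibility complex (MHC) class I molecules. Members were found by the gene symbol of the array annotation, and each gene was represented by its brightest probe set, the one with the highest mean over all 6 arrays. A probe set was found for 41 of the 42 genes, among 14217 genes in all with a probe set of 1 symbol. Xaf1 had no such probe set and was not measured. Of the 41 measured genes, 31 had 1 probe set and 10 had 2.

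Expression was measured on 6 single-channel Affymetrix arrays, 2 each for stretched cells, phenylephrine-treated cells and control cells, and the series asks how gene expression in stretched cardiomyocytes differs from that under a chemical growth stimulus. The stretched cells were seeded onto a silicone membrane coated with collagen, and after 36 h and a further 24 h without serum were stretched biaxially to 112% for 24 h. The phenylephrine cells received phenylephrine at 50 µmol/l. This compound activates α1-adrenergic receptors and makes cultured myocytes grow. The treatment text of the phenylephrine arrays lists endothelin-1 and angiotensin-II as further stimulants of the study, but the titles of these arrays name phenylephrine only. For the control cells the labels give no treatment. The cells of all 3 groups came from Wistar rats 1 to 2 days old, by digestion of the hearts with pancreatin and collagenase and separation of myocytes from fibroblasts on a Percoll gradient, and were cultured in DMEM with 10% fetal calf serum. The sources used here do not give the duration of phenylephrine, or the growth surface and serum-free period of the phenylephrine and control cells. RNA of several preparations was pooled, and no label says whether replicate arrays stand for separate cultures. The p-values thus reflect only the spread between the deposited arrays, and that spread may be technical.

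Type I interferons bind a receptor that activates the kinases JAK1 and TYK2, which phosphorylate STAT2. STAT2 and IRF9 are subunits of the complex ISGF3, which binds the interferon-stimulated response element (ISRE) in the promoters of its targets. Type II interferon acts through the gamma-activated site (GAS) and induces IRF1, which in turn drives the immunoproteasome and peptide loading genes. Most cells keep a low, tonic level of this program without infection.

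Promoter sequence bears on how these genes are wired, and the stretches shown are of 3 members that fell with phenylephrine and 2 that did not pass the test. The RefSeq promoter table of assembly GRCr8 (250 bases before to 50 after each gene's start) matched 37 of the 42 listed genes, and had no entry for Isg15, Mx2, Usp18, Ifit1 and Ifit2. The ISRE core was searched as GAAANNGAAA on both strands. Each stretch below is 80 bases, 5′ to 3′ on the gene's strand, with the ISRE core in capitals.
Irf7: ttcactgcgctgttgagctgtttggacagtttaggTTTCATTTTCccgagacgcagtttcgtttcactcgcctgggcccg
Gbp2: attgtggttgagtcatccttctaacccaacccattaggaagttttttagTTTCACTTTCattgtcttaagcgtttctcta
Rsad2: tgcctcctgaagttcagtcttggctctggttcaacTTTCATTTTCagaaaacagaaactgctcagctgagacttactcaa
Parp14: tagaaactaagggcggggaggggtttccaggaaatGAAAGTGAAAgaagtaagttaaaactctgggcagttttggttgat
B2m: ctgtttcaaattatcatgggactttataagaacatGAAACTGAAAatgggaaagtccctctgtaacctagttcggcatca
The Irf7 stretch lies at chr1:205800048-205800127 on the minus strand, and its match begins 69 bases before the start site of the table. For Gbp2 the stretch is chr2:234005647-234005726 on the plus strand, with the match 31 bases before the start. The Rsad2 stretch is chr6:48788223-48788302 on the minus strand, with the match 147 bases before the start. The stretches of genes that did not pass the test are chr11:78408023-78408102 on the plus strand for Parp14, with the match 76 bases before the start, and chr3:129549145-129549224 on the plus strand for B2m, with the match 150 bases before the start.

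The ISRE core was found in 24 of the 37 member promoters (64.9%), against 1312 of all 33465 promoters in the table (3.92%). It was in 4 of the 8 matched members that fell with phenylephrine (Irf7, Gbp2, Rsad2 and Dtx3l), and in 19 of the 28 matched members that were measured and did not pass. The GAS motif, searched as TTCNNNGAA, was in 11 of the 37 member promoters (29.7%), against 8.87% of all promoters. Irf1 and Irf9 held it among the 8 members that fell. As shares, the ISRE core was in 50.0% of the matched members that fell and in 67.9% of those that did not pass. A match describes these letters in this window and is no evidence of binding.

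The deposited values were taken as log2 signals. The array medians lay between 8.30 and 8.33 log2, and the interquartile ranges between 1.70 and 1.92, with the narrowest on phenylephrine replicate 2. Markers of the labelled cell type were bright on all arrays. All 8 measured ventricular myocyte markers of 9 listed were above the control median on every array, with array medians of 14.4 to 14.7 log2. The 9 fibroblast markers were also above the control median on all arrays, so this measure does not show how pure the myocytes were. Signals of different probe sets depend on the probes, and no level is set against that of another gene.

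By the mean of the 2 control arrays, 22 members lay above the median of all tested probe sets, 8.31 log2, and 19 below it. The members closest to the division were Tap2, just above it with control signals of 8.34 and 8.28 log2, and Irgm, just below with 8.30 and 8.26 log2. The brighter side held B2m, Ifi27 and Ifitm3, whose control arrays lay between 11.68 and 13.02 log2, and the transcription factors Irf1, Irf7, Irf9 and Stat2. The dimmer side held Mx1, Mx2, Rsad2, the 3 Ifit genes and Irf8. Fold changes of dim probe sets are compressed, so a small difference there may stand for a larger one in RNA.

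With phenylephrine, 11 of the 41 members fell relative to control and 0 rose, at an adjusted p below 0.05 (limma, Benjamini-Hochberg over 31042 probe sets). Over all 14217 genes, 2.36% fell and 2.41% rose. The 11 were the transcription factors Irf1, Irf7 and Irf9, the ISG15 genes Isg15 and Usp18, the antiviral genes Rsad2, Mx2, Gbp2, Ifi35 and Dtx3l, and the immunoproteasome subunit Psmb9. Usp18, Irf7 and Isg15 fell most, by 1.90-fold, 1.88-fold and 1.77-fold. The median difference of the 41 members was -0.22 log2, against 0.00 for all genes, and the members' differences ran from -0.93 to 0.08. At an unadjusted p below 0.05, 20 members were lower and none was higher, where 11.2% of all genes were lower. In this bulk measurement, fewer cells of a type and less RNA per cell cannot be told apart.

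The replicate arrays separated for most members. Both phenylephrine arrays lay below both control arrays in 27 of 41 members, where this held for 24.9% of all genes, and the other 14 members overlapped. The median of the members' differences from their control means was -0.21 and -0.27 log2 on the phenylephrine arrays and -0.08 and -0.17 on the stretch arrays. The control arrays, set against their own mean, were at 0.02 and -0.02. For the 22 members above the control median these values were -0.33 and -0.53 with phenylephrine, and -0.10 and -0.20 with stretch.

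**Figure D1:**
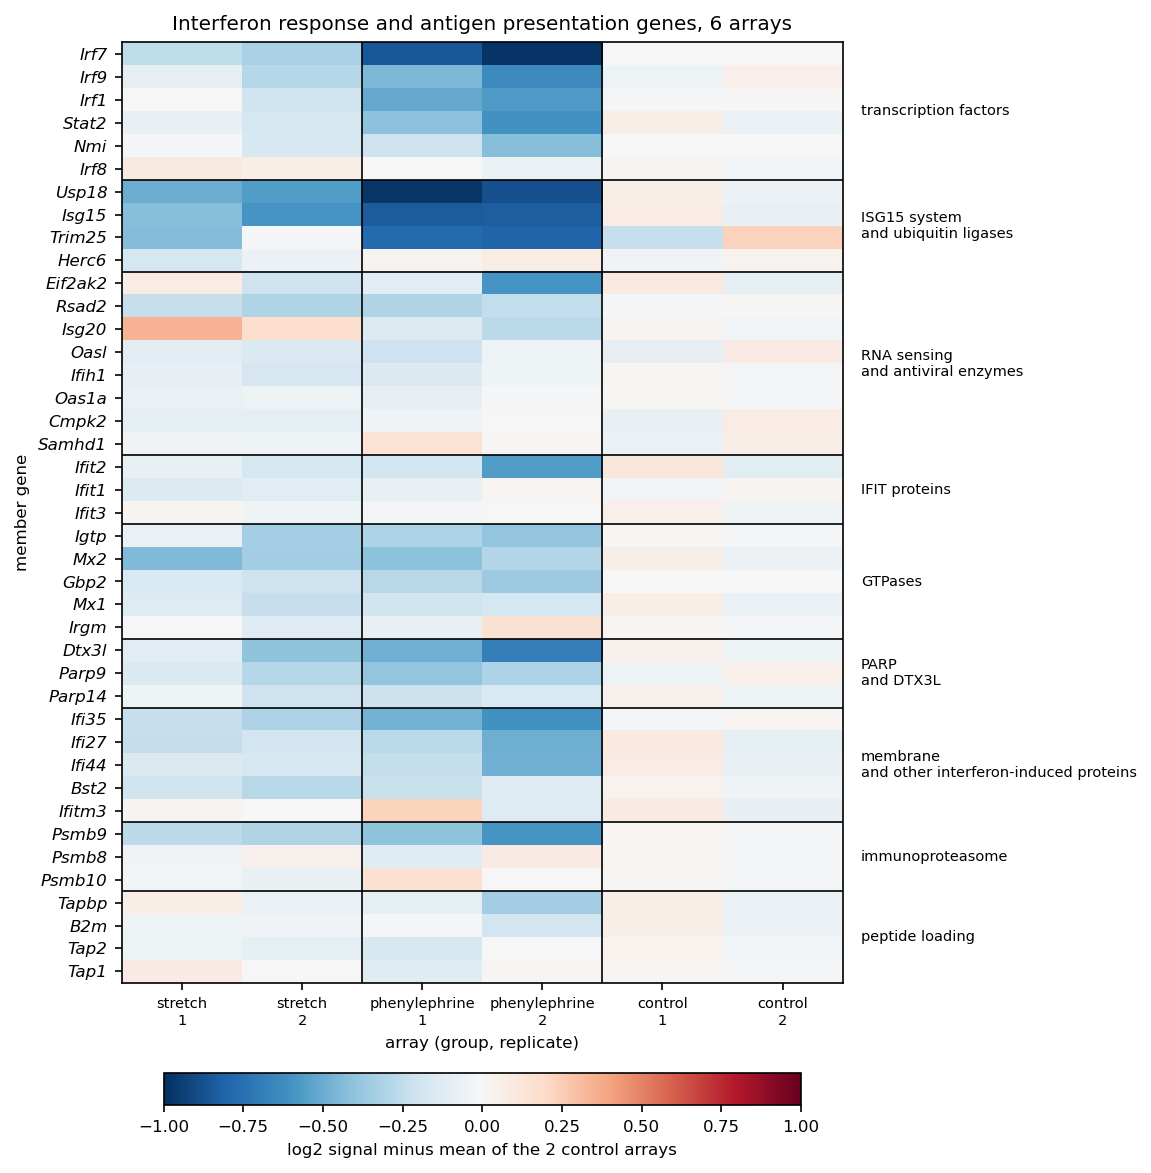
Log2 signal of each of the 41 measured members on each of the 6 arrays (columns, by group and replicate) minus the mean of the 2 control arrays, with members grouped by role. Blue is below and red above the control mean, and the phenylephrine columns are deepest for Irf7, Usp18, Isg15 and Trim25.

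Among the 22 members above the control median 8 fell with phenylephrine, with a median difference of -0.37 log2, where 3.31% of all genes above that median fell. Among the 19 below it 3 fell, Mx2, Rsad2 and Gbp2, with a median difference of -0.06 log2, where 0.462% of all genes below it fell. The division of the 11 depends on its reference: with the mean of all 6 arrays in place of the controls, Psmb9 and Dtx3l move to the dimmer side, and 6 of the genes that fell lie above the median and 5 below. Over all genes, the median difference was -0.03 log2 above the control median and 0.02 below it. The split and the differences use the same 2 control arrays, so they are not independent. The difference between both sides of the members was not tested.

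**Figure D2:**
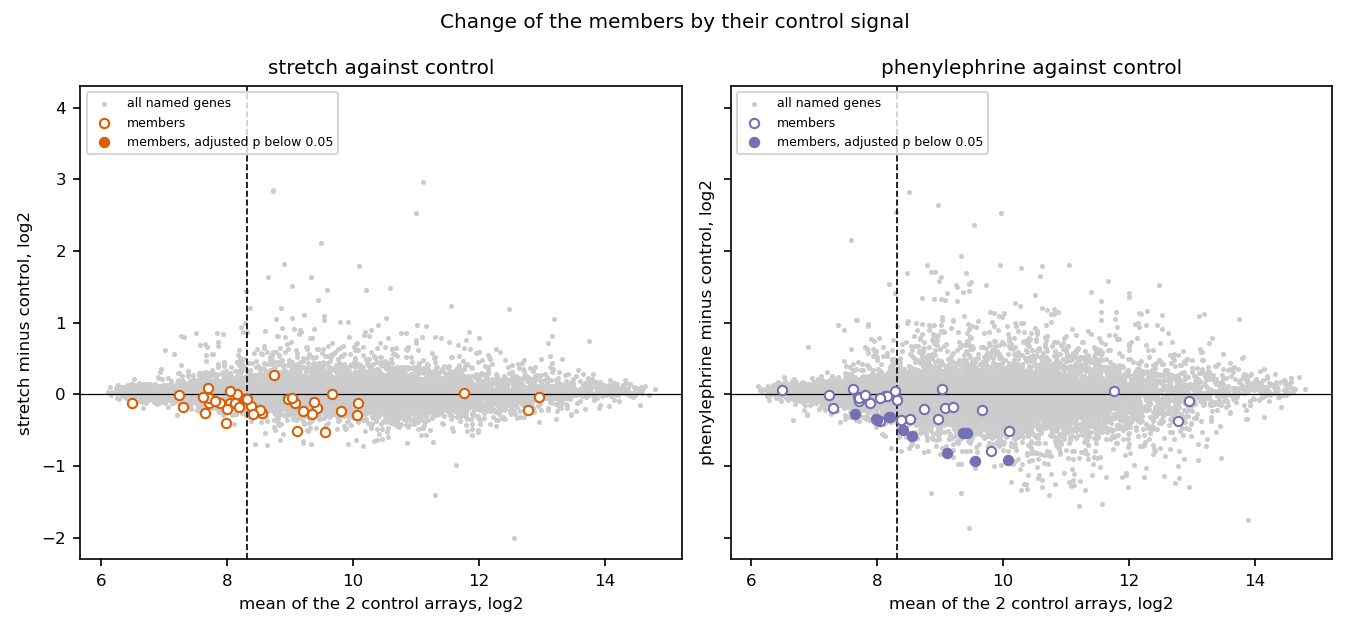
Difference against control (log2, vertical) by the mean of the 2 control arrays (log2, horizontal), for stretch on the left and phenylephrine on the right. Grey points are the 14217 named genes, coloured circles the 41 members, filled where the adjusted p was below 0.05, and the dashed line is the control median of 8.31; 8 of the filled circles lie right of it and 3 left of it.

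The transcription factor group holds 6 members that drive or tune the response, among them the STAT-binding protein Nmi. Of the 6, 3 fell with phenylephrine, against 2.36% of all genes. The median difference was -0.52 log2 over all 6. Irf7, the factor that amplifies type I interferon production (probe set 1383564_at), had 9.82 and 9.75 log2 with stretch, 9.22 and 9.09 with phenylephrine, and 10.08 and 10.07 in control cells. Neither treated group overlapped the control arrays, and the phenylephrine arrays were the lowest. It fell by 0.91 log2 with phenylephrine (SE 0.10, 95% interval -1.14 to -0.69, adjusted p = 0.00417). Irf9, the DNA-binding subunit of ISGF3 (1383448_at), had 9.33 and 9.14 with stretch, 8.97 and 8.79 with phenylephrine, and 9.38 and 9.48 in control cells. Its phenylephrine arrays were below all others, with a difference of -0.55 ± 0.11 (SE, adjusted p = 0.0362). The dimmer second probe set of Irf9 (1374627_at) gave -0.43 ± 0.10 and did not pass (adjusted p = 0.0645). Irf1, the factor linked to interferon gamma and to antigen presentation (1368073_at), had 9.38 and 9.18 with stretch, 8.87 and 8.81 with phenylephrine, and 9.37 and 9.39 in control cells. The stretch arrays overlapped the control arrays, and those of phenylephrine did not. The difference with phenylephrine was -0.54 ± 0.10 (adjusted p = 0.025).

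Stat2, the ISGF3 subunit that carries the transactivating part, had similar differences at its 2 probe sets, and only the dimmer one passed. At the brighter one (1389571_at) it had 10.01 and 9.91 with stretch, 9.68 and 9.48 with phenylephrine, and 10.15 and 10.02 in control cells, and the difference with phenylephrine was -0.51 ± 0.11 with an adjusted p of 0.0586. At the dimmer one (1373670_at) the difference was -0.57 ± 0.11 with an adjusted p of 0.032, so the count of 11 leaves out a gene whose other probe set passed. The brighter probe set passed after quantile normalization, with -0.46 (adjusted p = 0.00726). The mean over both probe sets passed too, with -0.54 (adjusted p = 0.0259). Stat2 did not pass under every alternative. Nmi, which binds STAT proteins, differed by -0.32 (adjusted p = 0.11). Irf8, a factor of myeloid cells, had 7.79 and 7.77 with stretch, 7.69 and 7.64 with phenylephrine, and 7.73 and 7.68 in control cells. Its stretch arrays were the highest of the 6, by a small margin.

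ISG15 is a ubiquitin-like protein that is attached to other proteins during the response, and USP18 removes it and restrains the interferon receptor. Isg15 (1382314_at) had 8.67 and 8.51 log2 with stretch, 8.27 and 8.28 with phenylephrine, and 9.18 and 9.03 in control cells. Usp18 (1389034_at) had 9.05 and 8.99 with stretch, 8.57 and 8.67 with phenylephrine, and 9.61 and 9.49 in control cells. In both genes the 3 groups formed separate steps, with phenylephrine lowest, stretch between and control highest. With phenylephrine Isg15 fell by 0.83 log2 (SE 0.09, adjusted p = 0.004) and Usp18 fell by 0.93 (SE 0.09, adjusted p = 0.00308). Both had lower stretch arrays too, with differences of -0.51 and -0.53, which did not pass the test.

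Neither of the 2 ligases in the group passed the test. Trim25, a ubiquitin ligase that activates the RNA sensor RIG-I, had 9.37 and 9.79 with stretch, 9.03 and 9.01 with phenylephrine, and 9.58 and 10.03 in control cells. Its replicates were far apart in stretched and control cells, so that a difference of -0.79 ± 0.18 with phenylephrine had an adjusted p of 0.0598. Herc6, the ligase that attaches ISG15 in mouse cells, had 6.31 and 6.42 with stretch, 6.52 and 6.56 with phenylephrine, and 6.45 and 6.52 in control cells. Its difference with phenylephrine was 0.05 on a dim probe set.

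**Figure D3:**
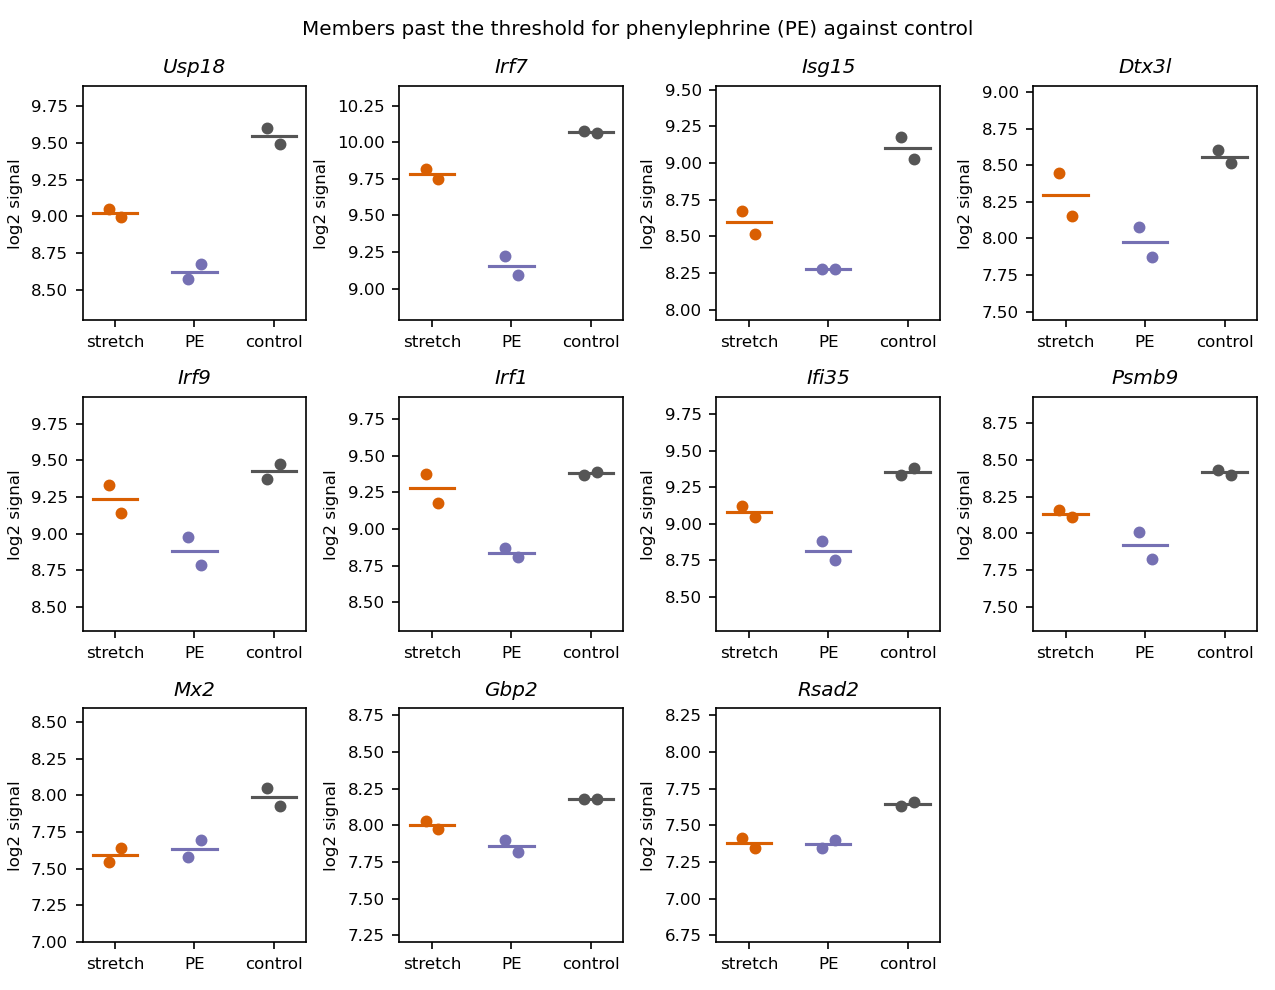
Log2 signal of the 11 members past the threshold for phenylephrine (PE) against control, with 1 point per array, a line at the mean of the 2 arrays, and panels of equal height on axes that do not start at 0. The PE points lie below both control points in all 11 panels, and in Mx2 and Rsad2 the stretch points lie at the level of the PE points.

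Of the RNA sensing and antiviral enzymes, 1 of 8 fell with phenylephrine, against 2.36% of all genes. It was Rsad2, the radical SAM enzyme viperin (1370913_at), which had 7.41 and 7.34 with stretch, 7.35 and 7.40 with phenylephrine, and 7.63 and 7.66 in control cells. The treated arrays lay together, below both controls, and the difference was -0.27 ± 0.06 with phenylephrine (adjusted p = 0.0426). Isg20, an exonuclease that degrades RNA, was above both controls in stretched cells. It had 9.10 and 8.93 with stretch, 8.62 and 8.48 with phenylephrine, and 8.78 and 8.72 in control cells, so that the 3 groups did not overlap. Its differences of 0.26 with stretch (adjusted p = 0.666) and -0.20 with phenylephrine (adjusted p = 0.326) did not pass. Eif2ak2, the kinase PKR that halts translation on double-stranded RNA, differed by -0.35 ± 0.17 with phenylephrine and its replicates were spread. Samhd1, which depletes deoxynucleotides, had 7.58 and 7.56 with stretch, 7.75 and 7.62 with phenylephrine, and 7.55 and 7.67 in control cells, with no separation of the phenylephrine and control arrays. Oas1a, Oasl, Ifih1 and Cmpk2 had differences from -0.13 to -0.01 with phenylephrine.

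The Ifit genes encode proteins that bind foreign RNA, and none of the 3 passed the test in either comparison with control. Ifit3 had 7.26 and 7.19 with stretch, 7.22 and 7.24 with phenylephrine, and 7.28 and 7.19 in control cells, which did not separate. Ifit1 differed by -0.03 and Ifit2 by -0.37 ± 0.12 (adjusted p = 0.173) with phenylephrine. The second probe set of Ifit2 gave -0.02.

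Among the interferon-induced GTPases, which attack viruses and vacuoles, 2 of 5 fell with phenylephrine, against 2.36% of all genes. Mx2 (1387283_at) had 7.55 and 7.64 with stretch, 7.58 and 7.70 with phenylephrine, and 8.05 and 7.93 in control cells. Both treated groups were below the control arrays and overlapped each other. The difference with phenylephrine was -0.35 ± 0.07 (adjusted p = 0.0416), and the dimmer second probe set of Mx2 gave -0.06. Gbp2, a guanylate-binding protein (1368332_at), had 8.03 and 7.98 with stretch, 7.90 and 7.82 with phenylephrine, and 8.18 and 8.18 in control cells. Its groups did not overlap, and it differed by -0.32 ± 0.06 with phenylephrine (adjusted p = 0.0326). Igtp, an immunity-related GTPase, differed by -0.35 (adjusted p = 0.0865) and Mx1 by -0.19. Irgm, of the same family as Igtp, had 8.28 and 8.15 with stretch, 8.21 and 8.43 with phenylephrine, and 8.30 and 8.26 in control cells, and the groups overlapped.

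DTX3L and PARP9 form a complex that ubiquitinates and ADP-ribosylates proteins, and PARP14 is a relative. In the RefSeq order of rat genes, Parp9, Dtx3l and Parp14 are neighbours. Dtx3l (1374718_at) had 8.45 and 8.15 with stretch, 8.08 and 7.88 with phenylephrine, and 8.60 and 8.51 in control cells. It fell with phenylephrine, by 0.58 log2 (SE 0.11, adjusted p = 0.0329), and both treated groups lay below the controls. Its neighbours differed by -0.35 ± 0.08 for Parp9 (adjusted p = 0.0566) and -0.19 for Parp14, neither past the threshold.

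In the group of membrane and other interferon-induced proteins, Ifi35 alone of 5 measured fell with phenylephrine, against 2.36% of all genes. Ifi35, a partner of NMI (1374551_at), had 9.12 and 9.04 with stretch, 8.88 and 8.75 with phenylephrine, and 9.33 and 9.38 in control cells. The 3 groups did not overlap, and the difference was -0.54 ± 0.09 (adjusted p = 0.0185). Ifi27 and Ifi44 differed by -0.38 and -0.36 without passing, and the tetherin gene Bst2 by -0.17. Ifi27 passed after quantile normalization, with -0.43 (adjusted p = 0.00235). Ifitm3, which blocks viral entry, had 11.79 and 11.76 with stretch, 11.99 and 11.64 with phenylephrine, and 11.85 and 11.68 in control cells. Its phenylephrine replicates were further apart than its groups.

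Of the 7 antigen presentation genes among the members, 1 fell with phenylephrine, against 2.36% of all genes. The immunoproteasome replaces the catalytic subunits of the proteasome with PSMB8, PSMB9 and PSMB10, and the peptides it cuts are moved by TAP1 and TAP2 and loaded by tapasin (Tapbp) on class I chains with beta-2 microglobulin (B2m). Psmb9 (1370186_at) had 8.16 and 8.11 with stretch, 8.01 and 7.83 with phenylephrine, and 8.44 and 8.40 in control cells. It was the only one of the 3 subunits to fall with phenylephrine, with a difference of -0.50 ± 0.08 (adjusted p = 0.0144), and its groups did not overlap. Psmb8 had 8.12 and 8.20 with stretch, 8.03 and 8.24 with phenylephrine, and 8.16 and 8.15 in control cells, with a difference of -0.02 for phenylephrine (95% interval -0.21 to 0.17). For Psmb10 the values were 9.01 and 8.96 with stretch, 9.18 and 9.03 with phenylephrine, and 9.04 and 9.02 in control cells, with a difference of 0.08 (95% interval -0.13 to 0.28). Both intervals lie above that of Psmb9, which ran from -0.67 to -0.32. The differences between the subunits were not tested.

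None of the 4 peptide loading genes passed. Tap1 had 8.13 and 8.04 with stretch, 7.92 and 8.06 with phenylephrine, and 8.06 and 8.02 in control cells, with a difference of -0.06 for phenylephrine (95% interval -0.22 to 0.11). Tapbp had 9.73 and 9.60 with stretch, 9.57 and 9.32 with phenylephrine, and 9.73 and 9.60 in control cells, a difference of -0.22 (adjusted p = 0.429). The Tap2 and B2m differences were -0.08 and -0.10, and B2m passed only after quantile normalization, with -0.20 (adjusted p = 0.033). Tap2, Psmb8, Tap1 and Psmb9 follow each other in the RefSeq gene order, and Psmb9 fell while the other 3 genes of this run did not pass the test.

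**Figure D4:**
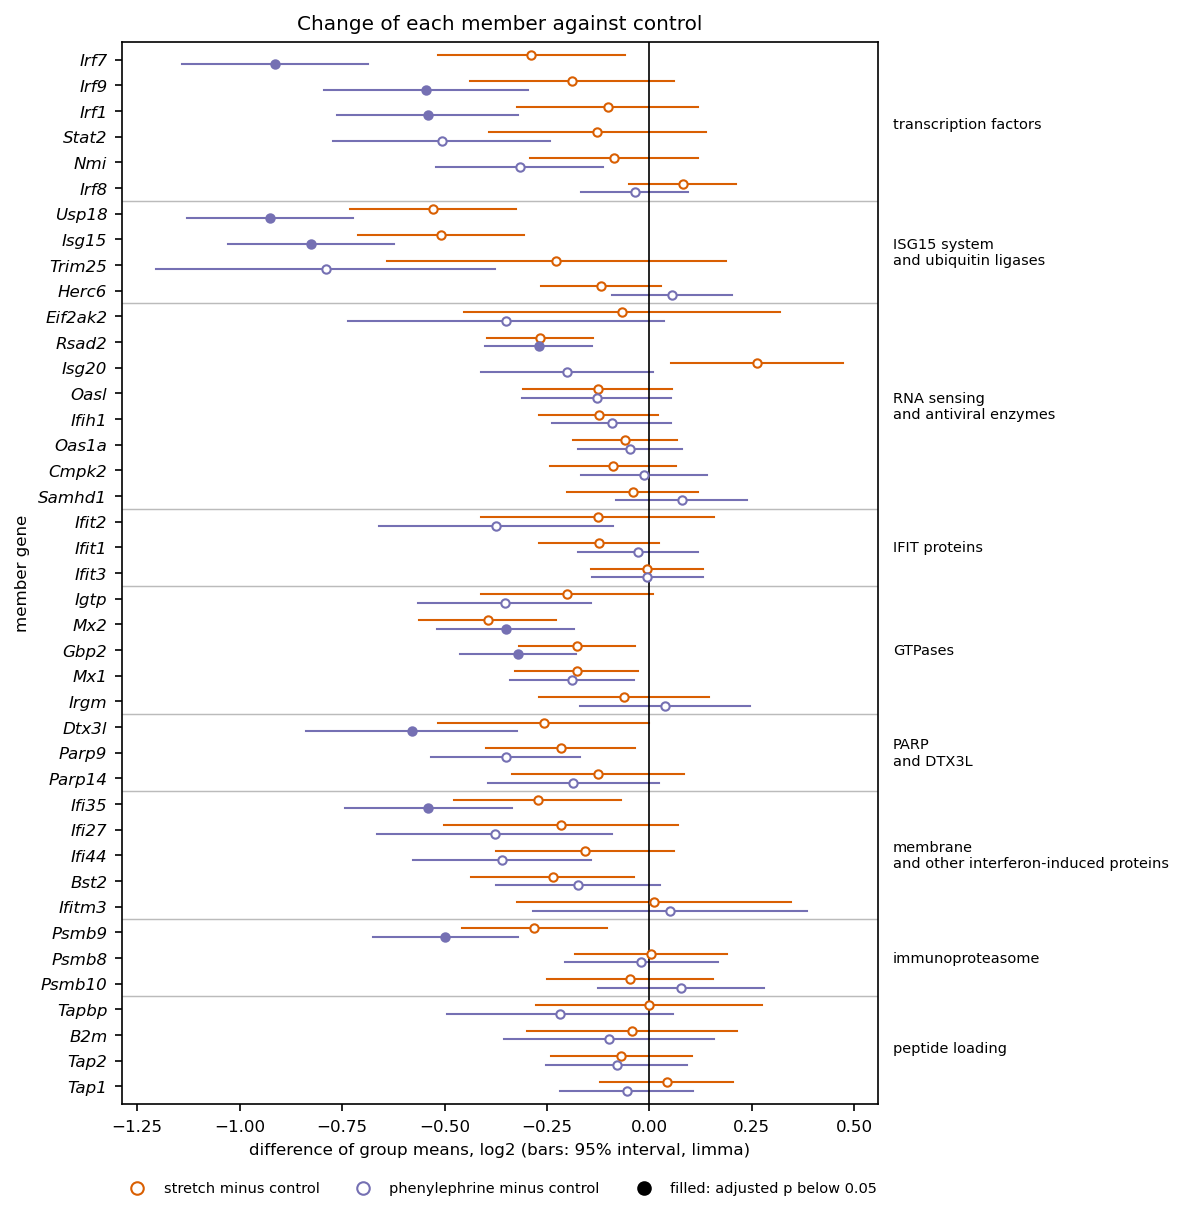
Difference of group means against control (log2) for each of the 41 members, for stretch and for phenylephrine, with the 95% interval of the limma fit as a bar, filled where the adjusted p was below 0.05. The filled points are the 11 phenylephrine falls, and none of the stretch points is filled.

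With stretch, none of the 41 members passed the test against control, where 0.521% of all genes did in either direction, and at an unadjusted p below 0.05 there were 13, of which 12 were lower with stretch, where 2.47% of all genes were lower. The differences were below 0 in 36 of 41, where this held for 48.2% of all genes, with a median of -0.13 against 0.00 for all genes, and ran from -0.53 to 0.26. Both stretch arrays were below both controls in 27 members, where this held for 19.4% of all genes. They were above both controls in 2, Irf8 and Isg20, where this held for 21.6% of all genes, and overlapped in 12. Usp18 and Isg15 had the lowest differences (adjusted p = 0.0762 and 0.0879), followed by Mx2 with -0.40 ± 0.07 (adjusted p = 0.109), Irf7 with -0.29, Psmb9 with -0.28 and Ifi35 with -0.27. After Isg20, the highest were Irf8 with 0.08, Tap1 with 0.04, Ifitm3 with 0.01, and Psmb8 and Tapbp with 0.00. The members above and below the control median had medians of -0.17 and -0.12. After quantile normalization Usp18 and Isg15 passed (adjusted p = 0.0276 and 0.0213), so the count of 0 depends on the normalization. It also depends on the fit: with a replicate block 8 members passed, though the labels do not pair the replicate numbers. Both comparisons share the 2 control arrays, so their values for a gene are not independent.

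Stretch was set against phenylephrine directly, and this difference of means does not use the control arrays. Irf7 was higher with stretch, by 0.63 ± 0.10 log2 (SE, 95% interval 0.40 to 0.85, adjusted p = 0.03), or 1.54-fold. It was the only one of 41 members to pass, where 0.999% of all genes were higher and 0.837% lower. The median difference was 0.12, with 29 of 41 members above 0, where 46.9% of all genes were below 0. Both stretch arrays were above both phenylephrine arrays in 19 members, where this held for 23.8% of all genes, and below them in 5, where it held for 17.7%, and they overlapped in 17. The next lowest adjusted p-values were those of Isg20, Irf1 and Usp18, with differences of 0.46 (adjusted p = 0.062), 0.44 (adjusted p = 0.0845) and 0.40 (adjusted p = 0.0872). Mx2 and Rsad2 differed by -0.04 and 0.00. When each array was left out in turn, the call of Irf7 held only without phenylephrine replicate 1, with adjusted p-values of up to 0.247 otherwise.

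Of 19 measured other interferon-induced genes, 3 fell with phenylephrine and none rose, with a list median of -0.06. Over all genes, 2.36% fell and 2.41% rose. This list was chosen with earlier results of these data known. Cxcl11, a chemokine that draws T cells through CXCR3, had 10.31 and 10.23 log2 with stretch, 9.50 and 9.15 with phenylephrine, and 10.84 and 10.63 in control cells, and fell by 1.41 with phenylephrine (adjusted p = 0.00378). Cxcl10, with the same receptor, had 8.94 and 8.73 with stretch, 8.09 and 8.22 with phenylephrine, and 9.07 and 8.93 in control cells, a fall of 0.84 log2 (adjusted p = 0.0056). Lgals3bp, a secreted glycoprotein, had 10.56 and 10.35 with stretch, 10.12 and 9.74 with phenylephrine, and 10.76 and 10.71 in control cells, and the difference was -0.80 (adjusted p = 0.0311). The phenylephrine arrays were lowest in these 3 genes. Stretch was higher than phenylephrine in Cxcl11, by 0.95 (adjusted p = 0.0274), and in Cxcl10, by 0.67 (adjusted p = 0.0238). In the direct comparison these were the only 2 of the 19 to pass, where 0.999% of all genes were higher and 0.837% lower.

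Upstream of the targets, 1 gene of 10 sensors and adaptors passed with phenylephrine, as a fall, where 2.36% of all genes fell. Mavs, the mitochondrial adaptor of RNA sensors, had 10.10 and 10.13 with stretch, 9.83 and 9.82 with phenylephrine, and 10.33 and 10.34 in control cells, and its 3 groups did not overlap. It differed by -0.51 with phenylephrine (adjusted p = 0.0322). None of the 3 measured interferon ligands, the 6 receptors or the 8 JAK, STAT and feedback genes passed with phenylephrine, and their medians were 0.02, -0.08 and -0.18. The largest difference in each of these lists was 0.12 for Ifng, -0.37 for Ifnar2 (adjusted p = 0.113) and -0.29 for Jak1. Of 17 listed MHC and class II genes, 14 were measured and none passed. RT1-A1, RT1-A2 and RT1-CE1 were not measured, so these class I genes were not covered. The median was 0.01, with the largest difference at RT1-DMb, -0.19. Probe sets of MHC genes can share sequence with paralogs, so these values are uncertain. The 6 other peptide loading genes and proteasome activators had a median of -0.06, with Psme2 at -0.23, none past the threshold. Of 3 listed constitutive subunits, Psmb6 was not measured. Psmb5 and Psmb7 had a median of 0.20, with Psmb5 at 0.25, and neither passed.

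With stretch, none of these other pathway genes passed against control. The list medians lay between -0.09 and 0.10, and the members with the largest difference in each of the 8 lists were Cxcl11 with -0.46, Jak2 with -0.23, RT1-S3 with -0.23, Mavs with -0.22, Canx with 0.21, Ifngr1 with -0.17, Ifng with 0.12 and Psmb5 with 0.10. Of the list members, the chemokine Cxcl11 was the lowest in both comparisons with control, which share their control arrays.

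**Figure D5:**
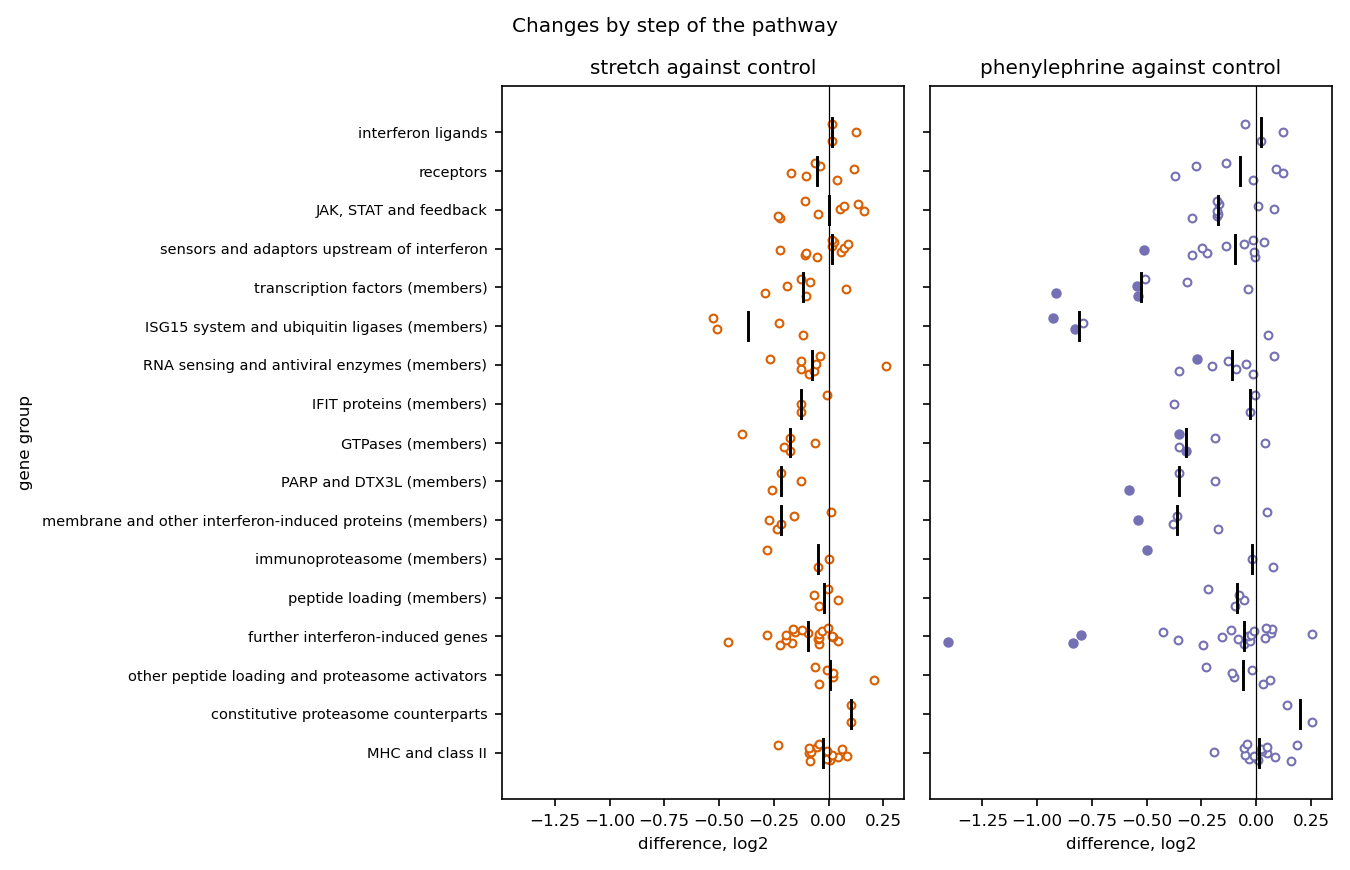
Difference against control (log2) of the members and of the other pathway genes, 1 row per group of genes and 1 point per gene, with stretch left and phenylephrine right. Points are filled where the adjusted p was below 0.05 and black bars are group medians. With phenylephrine the medians of the transcription factor group, -0.52, and the ISG15 group, -0.81, lie furthest left.

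Markers of other cell types moved in the same comparisons. The 9 fibroblast markers were lower with phenylephrine and with stretch, both arrays below both controls in all 9. This held for 24.9% of all genes with phenylephrine and for 19.4% with stretch. The median of these markers was -0.53 for phenylephrine, where 4 fell, and -0.24 for stretch, where none passed. With phenylephrine 2.36% of all genes fell, and 3.31% of those above the control median. The mean signal of the fibroblast markers was 11.4 and 11.3 log2 with stretch, 11.2 and 11.1 with phenylephrine, and 11.7 and 11.6 in control cells. Of 7 endothelial markers 2 fell with phenylephrine, Kdr and Emcn, with a median of -0.21, and array means of 8.47 and 8.42 with stretch, 8.30 and 8.22 with phenylephrine, and 8.56 and 8.61 in control cells. Of 14 macrophage and leukocyte markers 1 fell with phenylephrine, Cd68, with a median of -0.14, and of -0.03 with stretch. This list was split with phenylephrine. Both phenylephrine arrays lay below both controls in 8 markers, and the difference was above 0 in 6. It ran from -0.56 for Ptprc to 0.06 for Cd163. At an unadjusted p below 0.05, 6 markers were lower, where 11.2% of all genes were lower. The means were 9.09 and 9.04 with stretch, 8.94 and 8.86 with phenylephrine, and 9.10 in both control arrays. Of 6 smooth muscle and pericyte markers 2 rose with phenylephrine, Cnn1 by 2.55 log2 and Acta2 by 0.96, where 2.41% of all genes rose. Cnn1 also rose with stretch, by 1.45. The other markers of this list did not pass with phenylephrine. Myh11, Pdgfrb and Rgs5 differed by -0.17, -0.15 and -0.13, and Notch3 by 0.07. The list median was -0.03 with phenylephrine and 0.05 with stretch. The log2 signals have no true zero, so no marker can be called absent. The 8 myocyte markers had a median of 0.18 with phenylephrine and none passed. The part of these cells in the falls of the interferon genes was not tested.

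Of the 11 falls with phenylephrine, 3 to 9 stayed past the threshold when single arrays were left out. Irf7, Isg15 and Usp18 passed without each array in turn. Only these 3 passed without control replicate 1 or without control replicate 2, and 4 passed without phenylephrine replicate 2, these 3 and Psmb9.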

How the data were processed

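The authors deposited 1 value per probe set and array. The deposited values were taken as log2 expression from their range, and the authors' normalization was kept. How they were summarized, background-corrected and normalized is not given in the sources used here. Per the labels, RNA of several preparations was pooled, amplified by in vitro transcription and hybridized. The table held 31099 probe sets. After 57 array controls were left out, 31042 were tested, of which 20826 had 1 gene symbol in the platform annotation, 436 had several and 9780 none. The Entrez identifiers of all 41 measured members matched RefSeq (GRCr8), and 0 symbols changed.

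With limma 3.58.1 (R 4.3.3), 1 model over the 6 arrays gave each group its mean (lmFit, eBayes with a mean-variance trend, 3 residual and 4.8 prior degrees of freedom). Tests were two-sided, adjusted by Benjamini-Hochberg over 31042 probe sets, with a threshold of 0.05, and the script was tested on simulated data. Differences are of group means with n = 2 arrays each, and the number of arrays limits the precision. Shares over all genes used the brightest probe set of each of 14217 genes.

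All members may be named. Values in every array were given for members past the threshold and for the 6 highest and 6 lowest differences of each comparison with control, and for Stat2, chosen after its values were seen because its second probe set passed. Of the pathway lists, genes past the threshold were named, or the largest difference where none passed. The members and lists were chosen with earlier results of these data known. Alternatives tried were a replicate block, quantile normalization, median centring, no dim probe sets, no trend, only the arrays compared, the mean over probe sets, and leaving out each array.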

Additional observations from a re-analysis of the deposited data

How the results depend on the processing

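Over the 3 comparisons, of 1581 values of single members under an alternative, 1474 stayed on their side of the threshold, 58 passed it and 49 lost it. The sign turned in 57, none of them past the threshold in either setting. Stretch against control had 0 members past the threshold, against 8 with a replicate block, 2 after quantile normalization and 1 with the mean over probe sets. Leaving out each array in turn gave 0 there. Phenylephrine against control had 11, against 22 with the replicate block, 15 after quantile normalization, and 3 to 12 on leaving out single arrays, of which 3 to 9 were among the 11. Stretch against phenylephrine had 1, against 14 with the block, 5 after quantile normalization, 2 with arrays centred on their medians, 2 with the mean over probe sets, 0 with only the 4 arrays compared, and 0 to 1 on leaving out single arrays. Over all probe sets, calls with the block were 1028, 5384 and 3734 for the 3 comparisons, against 107, 1117 and 413 without it, and after quantile normalization 386, 2790 and 1527. The labels do not say whether equal replicate numbers belong together. Deviations of same-numbered arrays from their group means correlated by 0.487 (phenylephrine with control), 0.673 (stretch with control) and 0.534 (stretch with phenylephrine) across probe sets. With 2 numbers this does not establish pairing.

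The median difference of the members ranged on leaving out single arrays from -0.174 (without stretch replicate 1) to -0.0837 for stretch, from -0.27 (without phenylephrine replicate 1) to -0.21 for phenylephrine, and from 0.0624 (without stretch replicate 1) to 0.15 for stretch against phenylephrine. With phenylephrine, Irf7, Isg15 and Usp18 passed under all 13 alternatives, Psmb9 under 11, Irf1 and Ifi35 under 10, Dtx3l under 9, Irf9 under 7, Gbp2 under 6 and Mx2 under 3, and Rsad2 under 4 of 12. With all 6 arrays as reference, 18 members lay above the median in place of 22, among them 6 in place of 8 of those that fell. The cause of these shifts was not tested. The dim probe sets, with compressed folds, and 2 arrays per group limit what can be detected.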
